A study of Homo sapiens with 5 samples.

Results

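The genes described here are 10 inflammatory chemokines and acute phase genes of PC9, a human line of lung adenocarcinoma that is long established and carries an activating mutation in EGFR. They were taken by symbol and comprise the serum amyloid A genes SAA1 and SAA2, the lipocalin LCN2, the chemokines CXCL8, CXCL1, CXCL2, CXCL3, CXCL5 and CCL20, and the cytokine IL6. The authors' deposited table of 27477 genes has a row for 9 of the 10, and 6 of these have an adjusted p-value. CXCL5 has no row, so no level or fold change is given for it, and it appears only where promoter sequences are compared. RNA-seq compared 3 libraries of parental PC9 cells with 2 libraries of drug-tolerant PC9 cells. The drug-tolerant cells had been given 50 nM gefitinib, an inhibitor of the EGFR kinase, for 6 days and had then been kept in growth media for 3 days. The treatment text stands on the labels of all 5 libraries, and the titles alone separate parental from drug-tolerant. All libraries come from 1 cell line, the cells were collected after the drug-free days, and the labels do not say whether replicates were separate cultures, so p-values measure no more than the spread among these 5 libraries, and that spread may be technical.

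Serum amyloid A and lipocalin 2 are secreted acute phase proteins, made mostly by the liver during infection but also by lung and other epithelia. The CXC chemokines among these genes carry the ELR motif and attract neutrophils through the receptors CXCR1 and CXCR2, while CCL20 attracts cells that bear CCR6. IL-6 signals through IL6R and the shared subunit IL6ST to STAT3. Transcription of these genes is induced by IL-1, TNF and bacterial products through the NF-kB family, with C/EBP and STAT3 factors adding to it at the acute phase genes. The mRNAs of several of them turn over fast through AU-rich elements.

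The authors' deposited table gives only a mean level, a fold change and a test for each gene. The mean level is the average over the 5 libraries of reads divided by a library's size factor, its relative depth. The mean, fold change and standard error together fixed the whole reads per library for 8 of the 9 members with a row, all but LCN2. A level below is these reads over the size factor. The recovered libraries carry letters, parental a to c and drug-tolerant a to b, given by depth with the deepest first in each group, and cannot be matched to the replicate numbers of the labels.

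Parental a stood apart from the other parental libraries. Its group is the one the authors' fit gave it: all 298 genes with reads in this library only had negative fold changes in the authors' deposited table. Whether its label is right was not tested, and every parental mean below depends on it. Size factors ran from 0.789 to 1.19, or about 14.2 to 21.4 M counted reads. Over genes with mean levels up to 100, the chi-square per degree of freedom between parental a and parental b was 7.54, and between parental a and either drug-tolerant library it was 2.32. Parental b and c differed by 1.34 and the drug-tolerant pair by 1.18, both beyond sampling noise (chi-square p = 1.79e-57 and 4.27e-22, for counting error only), so all 5 were kept as separate libraries. Among resolved protein-coding genes with a mean level of 10 to 100, the ratio of reads from long transcripts (over 4 kb, 641 genes) to reads from short ones (under 2 kb, 621 genes) was 1.54 in parental a, 0.780 in b and 0.742 in c, while the drug-tolerant pair stood at 1.34 and 1.28. Ratios from reads are therefore given with and without parental a. No test was run on the reads of single members, because 3 libraries against 2 cannot give an exact two-sided permutation p below 0.1.

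SAA1 was lower in drug-tolerant cells and was the only member called, that is, with an adjusted p under 0.05 in the authors' DESeq2 test. SAA1 (ENSG00000173432, chromosome 11, 18266174 to 18269977, plus strand, build hg38) encodes the main inducible serum amyloid A. Its levels were 346.7, 799.0 and 833.8 in parental a, b and c, and 164.9 and 164.8 in drug-tolerant a and b. Both drug-tolerant libraries lay below every parental library, and parental a lay between the other parental libraries and the drug-tolerant pair. The group means were 660 ± 272 (SD, n = 3) and 164.9 ± 0.0734 (SD, n = 2), a 4.0-fold difference. The drug-tolerant SD rests on 2 libraries, with 187 and 130 reads, and cannot be taken as a measure of replicate spread. The difference was 4.95-fold without parental a and 2.10-fold against parental a alone. In the authors' deposited table the log2 fold change, shrunken towards 0 by the authors' fit, was -1.52 ± 0.35 (SE; 95% interval -2.20 to -0.85), with a DESeq2 adjusted p of 0.00532. The call was lost under 2 of the 7 alternatives tried: with the trend over transcript length removed (adjusted p = 0.21) and with scores divided by their robust SD (adjusted p = 0.97). The share of all genes called under these 2 is not given here. Of the 15223 genes with an adjusted p in that table, 0.552% were called, 0.289% lower and 0.263% higher.

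SAA2 (ENSG00000134339, chromosome 11, 18239223 to 18248643, minus strand) encodes the near-identical second inducible serum amyloid A. Its levels were 157.0, 121.9 and 123.9 in parental a, b and c, against 59.1 and 78.6 in drug-tolerant a and b. The groups did not overlap, and parental a was here the highest library, whereas for SAA1 it was the lowest of the parental libraries. The ratio of means was 1.95-fold with all libraries and 1.78-fold without parental a. In the authors' deposited table the log2 fold change was -0.81 ± 0.30, with an unadjusted p of 0.00731 and a DESeq2 adjusted p of 0.299, so SAA2 was not called.

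The balance of the pair of genes differed between libraries. SAA2 held 31.2% of SAA1 plus SAA2 reads in parental a (exact 95% binomial interval 27.5 to 35.0), 13.2% in parental b (11.1 to 15.6) and 12.9% in parental c (10.8 to 15.3). In drug-tolerant a it held 26.4% (21.1 to 32.3) and in drug-tolerant b 32.3% (25.7 to 39.4). These intervals cover counting error only. Parental a thus overlapped the drug-tolerant libraries in this share, while parental b and c lay below all of them. The summed level of both genes was 503.7, 920.9 and 957.7 in the parental libraries and 224.0 and 243.4 in the drug-tolerant ones. This sum does not depend on how counted reads were divided within the pair. Each gene separated the groups, so the sum had to do so and adds no further evidence.

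**Figure D1:**
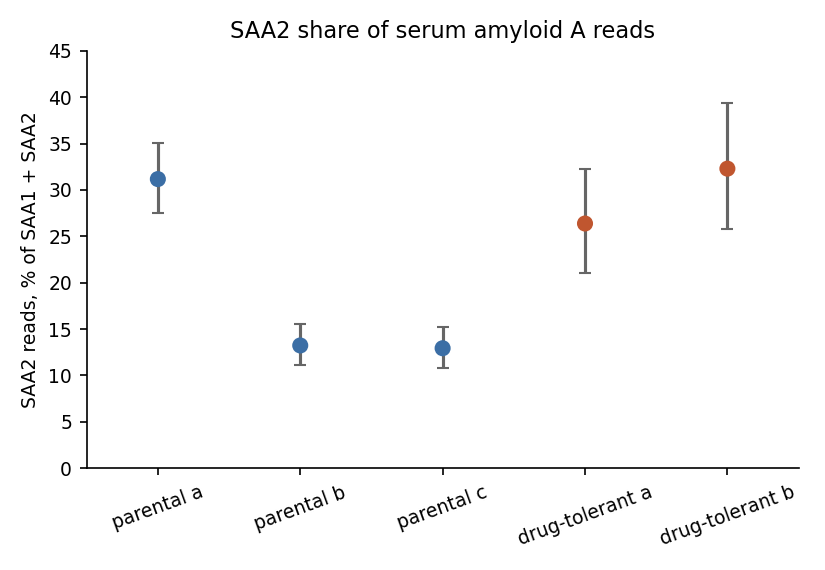
SAA2 reads as a percentage of SAA1 plus SAA2 reads (vertical axis) in each recovered library (horizontal axis), with exact 95% binomial intervals as bars. Parental b and c sit at 13.2% and 12.9%, below parental a at 31.2% and the drug-tolerant libraries at 26.4% and 32.3%.

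Few bases of the coding sequence tell the pair apart, but most 50-base windows of the whole SAA1 transcript do not occur in that of SAA2. Over the 369 coding bases of the GENCODE release 29 transcripts, SAA1 and SAA2 are identical at 358 (97%), and 34.1% of all 50-base windows of the SAA1 transcript also occur in that of SAA2. The sources used here name neither the counting tool nor its treatment of reads that match both genes, so the single values of SAA1 and SAA2 are uncertain to that extent. Coding bases 229 to 288 are shown because 8 of the 11 differences fall in them (capitals mark the differing bases).
SAA1: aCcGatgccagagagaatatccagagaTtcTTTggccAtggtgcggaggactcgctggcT
SAA2: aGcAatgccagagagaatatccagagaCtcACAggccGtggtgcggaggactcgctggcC

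SAA4 (ENSG00000148965), a constitutive serum amyloid A gene of the same cluster, was near the limit of detection, with 17, 2 and 7 reads in the 3 parental libraries, a to c, and 3 and 4 in the drug-tolerant ones. Its groups overlapped.

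LCN2 (ENSG00000148346, chromosome 9, 128149071 to 128153455, plus strand) encodes lipocalin 2, which binds bacterial siderophores and withholds iron. It had by far the highest mean level of these genes, 9364, in the authors' deposited table. Its level was too high for its mean to resolve into reads, so no value per library can be given. The deposited log2 fold change was -0.61 ± 0.36 (95% interval -1.32 to 0.09) with a DESeq2 adjusted p of 0.496 in the authors' deposited table. The interval includes 0, and LCN2 was not called.

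Among the neutrophil chemokines, CXCL8 and CXCL1 had lower levels in both drug-tolerant libraries than in any parental library but were not called, and CXCL2 and CXCL3 were too low to rank. CXCL8 (ENSG00000169429, chromosome 4, 73740506 to 73743716, plus strand) encodes interleukin 8, a ligand of both CXCR1 and CXCR2. Its levels were 211.5, 133.7 and 134.3 in parental a, b and c, and 70.5 and 82.4 in drug-tolerant a and b. Parental a was the highest, and the remaining parental libraries were nearly equal. The ratio of means was 2.09-fold, 1.75-fold without parental a and 2.77-fold against parental a alone. In the authors' deposited table the log2 fold change of CXCL8 was -0.87 ± 0.32 (95% interval -1.49 to -0.25), with an unadjusted p of 0.00631 and a DESeq2 adjusted p of 0.282.

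CXCL1 (ENSG00000163739, chromosome 4, 73869393 to 73871242, plus strand) encodes a ligand of CXCR2. It was counted by 46, 25 and 29 parental reads, in the order a to c, and by 15 reads in each drug-tolerant library, which gave levels of 38.6, 24.6 and 30.2 against 13.2 and 19.0. The groups did not overlap, and the order of the parental libraries had parental a on top, as for CXCL8. The ratio of means was 1.93-fold and 1.70-fold without parental a. The deposited log2 fold change was -0.64 ± 0.39 in the authors' deposited table, with a DESeq2 adjusted p of 0.505.

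CXCL2 (ENSG00000081041, chromosome 4, 74097035 to 74099293, minus strand) and CXCL3 (ENSG00000163734, chromosome 4, 74036589 to 74038807, minus strand) encode the closest relatives of CXCL1. CXCL2 had 4, 8 and 7 parental reads, in the order a to c, against 5 and 10 drug-tolerant reads. CXCL3 had 3, 13 and 5 reads against 4 and 7. In both genes the groups overlapped, and a single library set the direction: the sign of the CXCL2 ratio turned without drug-tolerant b, from a log2 ratio of 0.47 to -0.48, and that of CXCL3 turned without parental b, from -0.14 to 0.68, or without drug-tolerant a, to 0.38. Without parental a the log2 ratios were 0.17 for CXCL2 and -0.54 for CXCL3. Their log2 fold changes in the authors' deposited table were 0.18 ± 0.40 and -0.05 ± 0.39, with no adjusted p. A difference was not detectable at this depth.

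CXCL6 (ENSG00000124875), another ELR chemokine of the same cluster, had 7, 3 and 4 reads in the parental libraries and 3 and 0 in the drug-tolerant ones.

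CXCL1, CXCL2 and CXCL3 arose by duplication, and their reads can in part be shared. Of 324 coding bases, CXCL1 and CXCL2 share 93.5%, CXCL1 and CXCL3 90.7%, and CXCL2 and CXCL3 94.4%. Over whole transcripts fewer windows coincide than for serum amyloid A: 5.73% of the 50-base windows of CXCL1 occur in CXCL2 and 0.573% in CXCL3, and 4.62% of those of CXCL2 occur in CXCL3. Coding bases 259 to 318 from the GENCODE release 29 transcripts are shown as a stretch in which the 3 genes can be told apart (capitals mark positions where they are not all alike).
CXCL1: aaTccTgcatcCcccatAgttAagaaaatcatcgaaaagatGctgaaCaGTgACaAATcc
CXCL2: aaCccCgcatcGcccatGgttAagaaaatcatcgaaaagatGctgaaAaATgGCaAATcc
CXCL3: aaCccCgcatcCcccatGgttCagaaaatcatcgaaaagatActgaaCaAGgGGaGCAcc

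CCL20 (ENSG00000115009, chromosome 2, 227805739 to 227817564, plus strand), the ligand of CCR6, had 5, 3 and 3 parental reads, in the order a to c, and 2 reads in each drug-tolerant library. Its levels of 4.2, 2.9 and 3.1 against 1.8 and 2.5 did not overlap, and the ratio of means was 1.59-fold, or 1.41-fold without parental a, but with 15 reads in all a difference was not detectable at this depth. The authors' deposited table gives a log2 fold change of -0.18 ± 0.36 and no adjusted p.

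IL6 (ENSG00000136244, chromosome 7, 22725884 to 22732002, plus strand) had 27, 17 and 19 parental reads, in the order a to c, and 9 and 15 drug-tolerant reads. Its levels of 22.7, 16.7 and 19.8 overlapped the drug-tolerant values of 7.9 and 19.0, and drug-tolerant a alone lay below the parental libraries. The ratio of means was 1.46-fold and 1.35-fold without parental a, and its log2 value moved from -0.55 to -0.05 without drug-tolerant a. In the authors' deposited table the log2 fold change was -0.34 ± 0.40, with a DESeq2 adjusted p of 0.685.

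**Figure D2:**
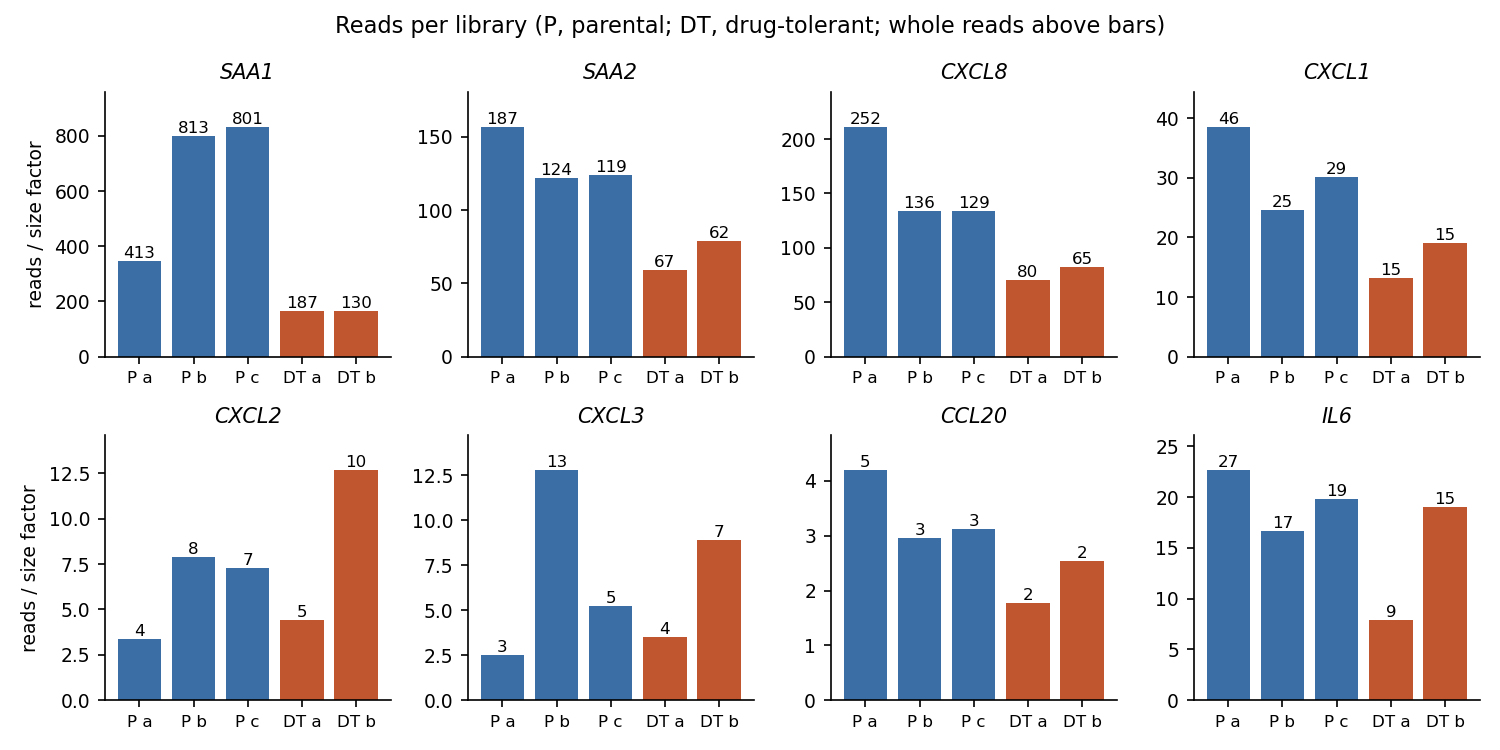
Level (reads over size factor, vertical axes starting at 0 and differing between panels) of the 8 members with recovered reads in each library, with the whole reads above the bars (P, parental; DT, drug-tolerant). SAA1, SAA2, CXCL8, CXCL1 and CCL20 have both drug-tolerant bars below all parental bars, and parental a is the lowest parental bar for SAA1 and the highest for CXCL8.

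The promoters of the chemokines and of IL6 share a feature that is not a measurement of these libraries. In the RefSeq promoter table (GRCh38.p14), which holds 8 of the 10 members, the motif GGNNTTTCC, the form of NF-kB site searched on both strands of the 250 bases before the start, occurred in 7: CXCL8, CXCL1, CXCL2, CXCL3, CXCL5, CCL20 and IL6. It occurred in 5.48% of all 35116 promoters in the table. The narrower GGAATTTCC, every match of which is also a match of the first motif, occurred in 5 members, the ELR chemokines, and in 0.413% of all promoters. LCN2 had no match in this window, and the serum amyloid genes are not in the table. Windows of 40 bases are shown for the members whose reads were recovered and whose match lies on the gene's own strand, because CXCL1, CXCL2 and CXCL3 share nearly the whole window while their counts range from the tested to the barely detected (capitals mark the motif).
CXCL8 (chr4:73740462-73740501, plus strand): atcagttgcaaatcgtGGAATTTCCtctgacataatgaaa
CXCL1 (chr4:73869299-73869338, plus strand): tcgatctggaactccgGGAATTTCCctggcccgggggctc
CXCL2 (chr4:74099249-74099288, minus strand): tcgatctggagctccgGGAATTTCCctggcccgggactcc
CXCL3 (chr4:74038744-74038783, minus strand): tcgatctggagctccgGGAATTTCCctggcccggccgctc
IL6 (chr7:22727112-22727151, plus strand): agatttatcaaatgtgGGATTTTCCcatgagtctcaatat

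Levels can be ordered between genes only per length of transcript. Per kb of its longest transcript, the mean level of the authors' deposited table was 11042 for LCN2, 684 for SAA1, 106 for SAA2, 74.2 for CXCL8, 22.9 for CXCL1 and 11.3 for IL6. CXCL3, CXCL2 and CCL20 followed at 6.12, 5.84 and 3.47. In parental libraries the level per kb of SAA1 ran from 514 to 1235 and lay above that of SAA2, from 119 to 154. SAA2 and CXCL8, from 78.4 to 124, overlapped. CXCL1, from 22.4 to 35.2, lay above IL6, from 10.9 to 14.8, whereas IL6 overlapped CXCL3, from 2.34 to 11.9, which in turn overlapped CXCL2 and CCL20. In drug-tolerant libraries SAA1 stood at 244 per kb in each and remained above SAA2, from 57.8 to 76.9, and SAA2 lay above CXCL8, from 41.4 to 48.3.

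The log2 fold changes of all 6 tested members were negative in the authors' deposited table. Their median was -0.73 against -0.02 over all 15223 genes tested, of which 51.6% were negative. The members were chosen with earlier results of these data known, so their shared direction is no independent support. All 6 are also short transcripts, for which the background is lower. In the 2 shortest of 10 groups by length the medians were -0.50 and -0.31, and the upper quartiles -0.27 and -0.08. By the unadjusted p under 0.05, 3 members were lower (SAA1, CXCL8 and SAA2) and 0 higher, where 7.1% of all genes were lower and 3.7% higher. By the adjusted p, 1 was lower and 0 higher. Both drug-tolerant libraries lay below all parental ones in 5 of the 8 members with recovered reads. Among the 4132 resolved genes with a mean level of 10 to 100 this held for 18.8%, and the reverse for 14.7%. Only CXCL1 and IL6 lie in that range of levels, and it held for CXCL1 and not for IL6, so the share is no background for the other members. Fewer cells expressing a gene and less RNA per cell cannot be told apart in these bulk samples.

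**Figure D3:**
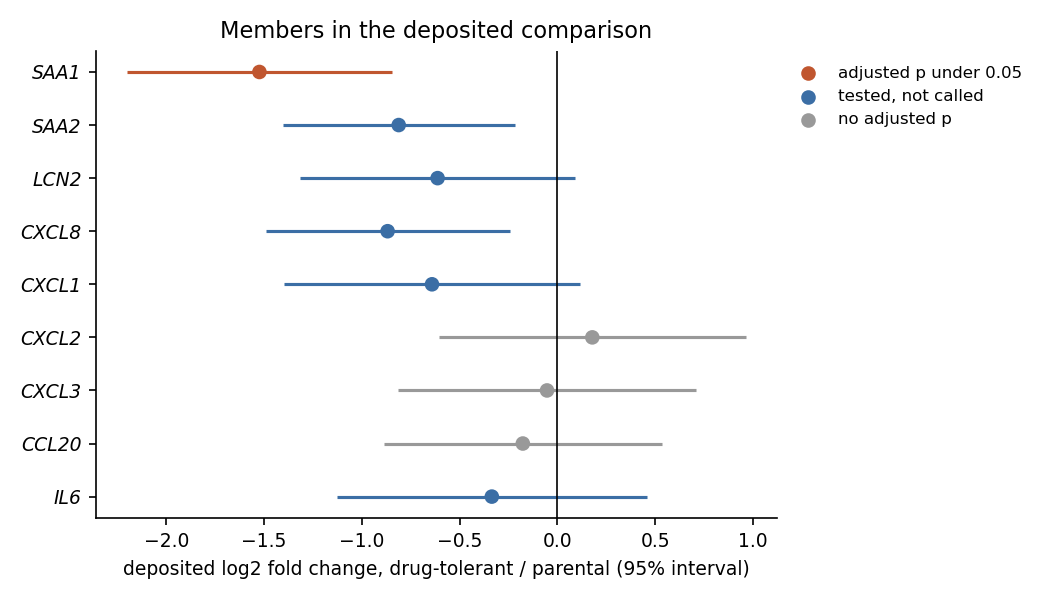
Log2 fold change of each member in the authors' deposited table (horizontal axis, drug-tolerant over parental) with its 95% interval. SAA1 at -1.52 is the only member called, the intervals of SAA2 and CXCL8 also lie below 0, and those of LCN2, CXCL1, IL6, CCL20, CXCL2 and CXCL3 include 0.

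The members are short transcripts, and short transcripts had lower fold changes in this comparison. Across the 12461 protein-coding genes with an adjusted p and a length, split into 10 groups of equal size by length, the median log2 fold change in the authors' deposited table was -0.50 in the shortest group (207 to 1475 nucleotides) and -0.31 in the next. The longest transcripts of the tested members run from 675 nucleotides for SAA1 to 1705 for CXCL8, so that all lie in these 2 groups. Within its group of 1247 genes SAA1 had the lowest fold change, 0 genes being below it. Below SAA2 lay 9.14% of the same group, below CXCL1 28.9% and below LCN2 32.7%. Of the next group, 3.69% lay below CXCL8 and 45.6% below IL6.

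With the trend over length removed from fold changes and scores, no member was called. The share of all genes called after this step is not given here, so the loss cannot be read as particular to SAA1. SAA1 then stood at -0.95 (Benjamini-Hochberg adjusted p = 0.21), CXCL8 at -0.59, SAA2 at -0.35, CXCL1 at -0.20, LCN2 at -0.10 and IL6 at -0.0082. CXCL8 and SAA1 remained the furthest below 0, and IL6 lay at the trend. The ratio of long to short reads was low in parental b and c and high in parental a and both drug-tolerant libraries. Against parental a alone, a comparison added after seeing the data, the log2 ratio from reads was -1.07 for SAA1, -1.19 for SAA2 and -1.47 for CXCL8. It was -1.26 for CXCL1, -0.75 for IL6 and -0.97 for CCL20, the last with 5 reads in parental a. CXCL2 and CXCL3 went the other way, at 1.35 and 1.30, with 4 and 3 reads in parental a. The part of transcript length in these ratios was not tested. Parental a was at least 2-fold above the drug-tolerant mean in SAA1, SAA2, CXCL8 and CXCL1. The same held for 5.18% of the 4132 resolved genes with a mean level of 10 to 100. Of the members at least 2-fold above, only CXCL1 lies in that range, and IL6, the other member in it, was at 1.68-fold. The share is therefore no background for SAA1, SAA2 and CXCL8. Parental a is 1 library, so ratios against it have no replicate check.

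**Figure D4:**
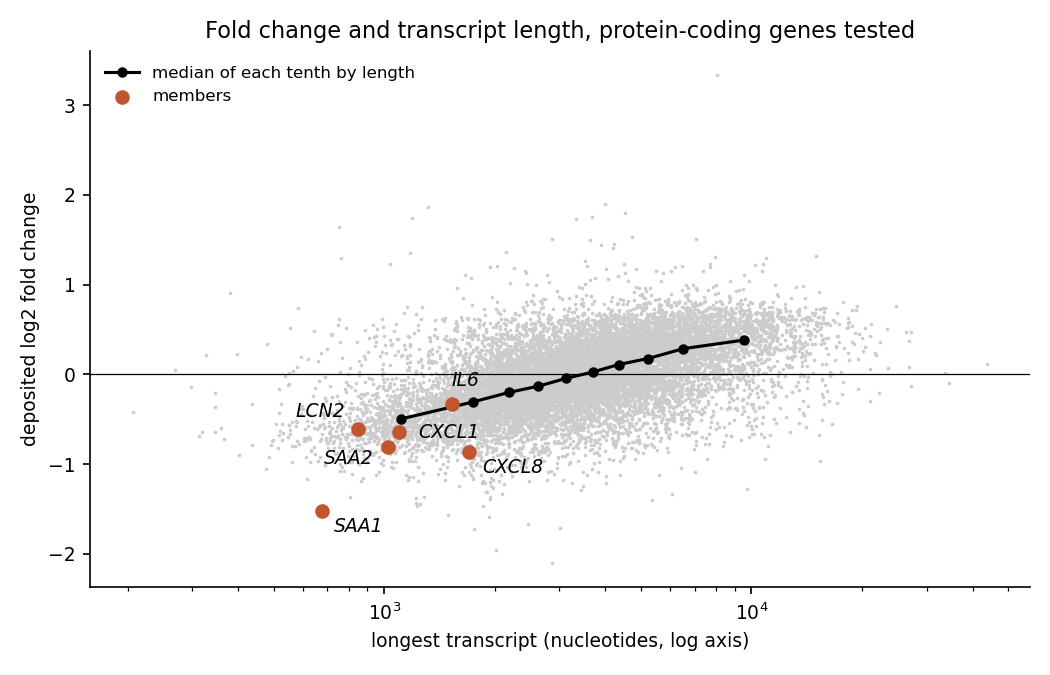
Log2 fold change in the authors' deposited table (vertical axis) against the longest transcript in nucleotides (log axis) for 12461 protein-coding genes (grey), the median of each of 10 groups by length (black line) and the 6 tested members (orange). IL6 lies on the line, LCN2 and CXCL1 close to it, and SAA1, CXCL8 and SAA2 below it.

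Around the members, 11 lists of the same pathways were counted in the authors' deposited table, and apart from SAA1 a single gene was called. This was TNFRSF1B, TNF receptor 2, which was higher in drug-tolerant cells. Its levels were 17.6, 15.7 and 15.6 in the parental libraries, a to c, and 70.5 and 92.5 in the drug-tolerant ones. Here parental a went with the other parental libraries. The log2 fold change in the authors' deposited table was 1.75 ± 0.35, with a DESeq2 adjusted p of 0.000612. Of the 13 receptor genes tested, 1 was called higher and 0 lower, with a median of 0.26. This median and those of the lists below were not corrected for transcript length. Among all 15223 genes tested 0.552% were called, so 0 called genes in a list of this size say nothing about that list. The receptors CXCR1, CXCR2 and CCR6 had no row. IL6R and IL6ST, the receptor chains for IL-6, were at 0.26 ± 0.41 and 0.40 ± 0.34 in the authors' deposited table, and neither was called. The IL-1 receptor chains IL1R1 and IL1RAP were at 0.48 ± 0.30 and 0.39 ± 0.30 there, also not called. For both IL-1 chains, parental a lay nearer to the drug-tolerant libraries than parental b and c did. Their transcripts, of 5143 and 5413 nucleotides, fall in a length group whose median was 0.18.

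Of the 11 inflammatory cytokines tested, 0 were called and 8 were below 0, with a median of -0.38. IL1B, an inducer of many of these genes, had levels of 82.3, 145.5 and 127.0 in the parental libraries, a to c, and 52.0 and 72.3 in the drug-tolerant ones. IL1A had 23.5, 50.1 and 43.7 against 12.3 and 17.7. In both IL-1 genes the groups did not overlap and parental a lay nearest to the drug-tolerant libraries, as in SAA1 and unlike CXCL8. IL32, a cytokine that induces TNF and IL-8, had 34.4, 20.6 and 17.7 against 3.5 and 7.6, again without overlap. IL1A, IL1B and IL32 have mean levels of 10 to 100, where 18.8% of all resolved genes lay below in the same way. Among the 7 recovered cytokines of this list with a mean of 10 or more, without IL6, 4 lay below and 1 above. The DESeq2 adjusted p was 0.446 for IL1B, 0.428 for IL1A and 0.289 for IL32 in the authors' deposited table. IL18, of the IL-1 family, was at -0.79 ± 0.33 there (adjusted p = 0.397). The transcripts of IL18, IL32 and IL1B, of 1147, 1272 and 1631 nucleotides, lie in the 2 shortest length groups, with medians of -0.50 and -0.31. That of IL1A, of 2124 nucleotides, lies in the next group, with a median of -0.20.

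No gene of the NF-kB system was called in the authors' deposited table, where 0.552% of all genes tested were. With so low a share, 0 calls do not show whether the system changed. Of its 20 subunits and activating components 6 were below 0, with a median of 0.08, and of 13 inhibitors and feedback genes 10 were below 0, with a median of -0.19. RELB, a subunit that is itself an NF-kB target, was at -0.57 ± 0.29, the inhibitor NFKBIE at -0.66 ± 0.29, and the ubiquitin-binding inhibitor TNIP1 at -0.67 ± 0.28 in the authors' deposited table, while TNFAIP3 (A20), a feedback inhibitor, was at 0.63 ± 0.33. NFKBIE levels were 184.7, 257.5 and 282.1 in the parental libraries and 137.6 and 145.8 in the drug-tolerant ones, without overlap. Among the 8 recovered inhibitors and feedback genes with a mean of 10 or more, 3 lay below all parental libraries and 0 above. The subunit gene REL was split within the parental group, with 390.3 in parental a, 56.0 in b and 48.9 in c, while the drug-tolerant libraries stood at 321.9 and 343.6. REL has a long transcript, of 11255 nucleotides.

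Of 11 other NF-kB target genes tested, 0 were called and 8 were below 0, with a median of -0.13. PTX3, a long pentraxin and itself a soluble acute phase protein, stood opposite to the serum amyloids. Its levels were 527.2, 188.7 and 214.4 in the parental libraries, a to c, and 1022 and 909.0 in the drug-tolerant ones. The groups did not overlap, and the log2 fold change in the authors' deposited table was 1.20 ± 0.36, with a DESeq2 adjusted p of 0.0994. Among the 4 recovered genes of this list with a mean of 10 or more, 1 lay above all parental libraries, PTX3, and 3 lay below. CD83 and IRF1, both NF-kB targets, were at -0.50 ± 0.26 and -0.43 ± 0.25 there.

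Of 12 C/EBP and STAT3 genes tested, 0 were called and 6 were below 0 (median 0.06), and of 9 factors that bind AU-rich elements 0 were called and 6 were below 0 (median -0.10), by the authors' deposited table. STAT3 was at 0.36 ± 0.23 and ZFP36L1, which promotes decay of AU-rich mRNAs, at -0.26 ± 0.20 in the authors' deposited table.

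Of 6 acute phase genes tested, the members SAA1, SAA2 and LCN2 included, all were below 0 and SAA1 was the only one called (median -0.69). CP at -0.0019 ± 0.37 and FTH1 at -0.17 ± 0.31 lay near 0, and PTX3, at 1.20, is not in this list. The value of CP depends on parental a. Its levels were 105.8, 3.9 and 3.1 in parental a, b and c, and 45.9 and 29.2 in drug-tolerant a and b. Of 9 epithelial antimicrobial genes, LCN2 included, 7 were below 0 and 0 were called (median -0.36). DEFB1 at 0.33 ± 0.37 and LYZ at 0.08 ± 0.41 were above 0. The ferritin light chain FTL, of the acute phase list, was at -0.76 ± 0.35 in the authors' deposited table. In the antimicrobial list, the secreted WFDC2 was at -0.98 ± 0.36 and the calprotectin subunit S100A9 at -0.75 ± 0.31 there. The transcripts of FTL, WFDC2 and S100A9 are 878, 818 and 577 nucleotides long and fall in the shortest group as well. Of 2 ELR chemokines tested, both members, 2 were below 0 (median -0.75), and of 2 other chemokines tested, CXCL16 was at -0.56 ± 0.28 and CCL22 at 0.27 ± 0.40 in the authors' deposited table. Neither list had a called gene.

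**Figure D5:**
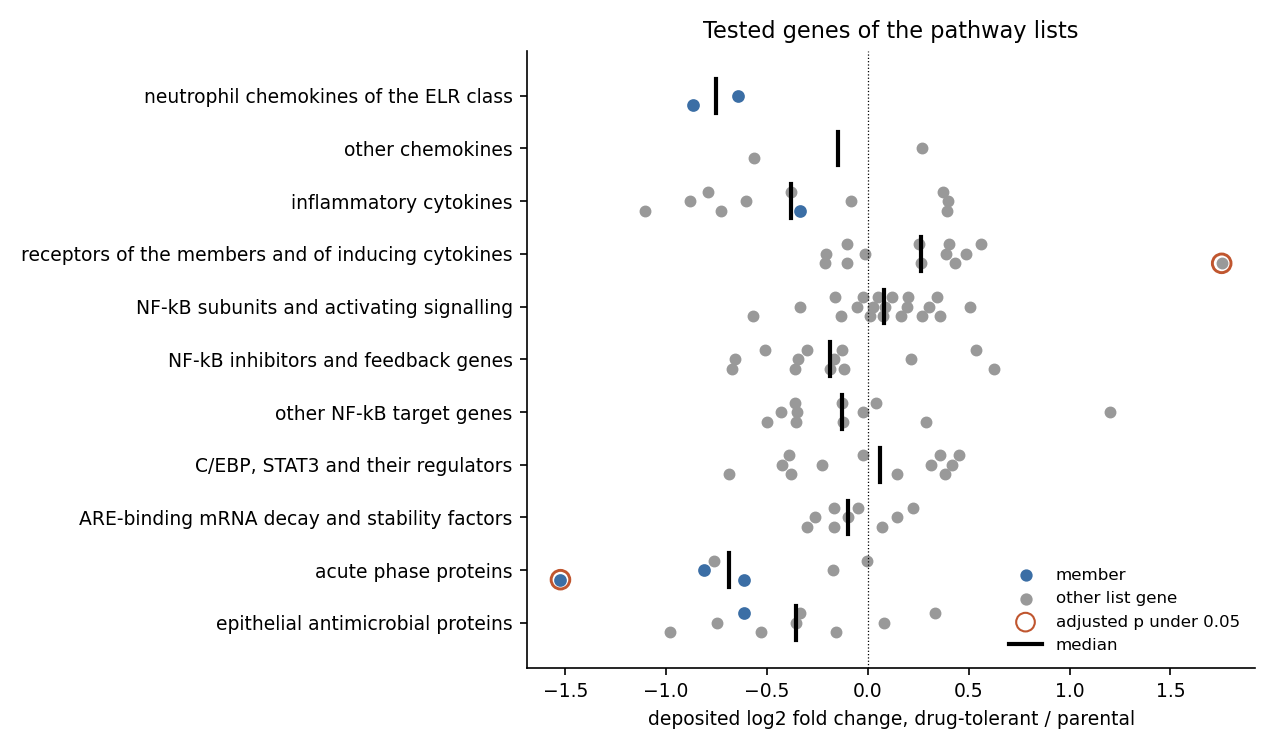
Log2 fold change in the authors' deposited table (horizontal axis) of every tested gene of the 11 pathway lists, with members in blue, other genes in grey, the list median as a black bar and an orange ring at an adjusted p under 0.05. SAA1 at -1.52 and TNFRSF1B at 1.75 are the only ringed genes.

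Epithelial markers were present. All 11 epithelial and lung adenocarcinoma markers had a row, with a summed mean level of 119633 in the authors' deposited table. This sum holds keratins such as KRT7 (24102) and KRT19 (23904) and is no measure of lung lineage. The lung lineage markers NKX2-1 (2.83) and NAPSA (2.33) were near 0. SFTPB was low, with levels of 5.9, 2.9 and 7.3 in parental a, b and c and 19.4 and 16.5 in drug-tolerant a and b. Its log2 fold change was 0.88 ± 0.41 (DESeq2 adjusted p = 0.449). Neutrophil markers, the cells these chemokines attract, were nearly missing: 2 of 8 had a row, with summed levels of 6.72, 13.8 and 19.8 in the parental libraries, a to c, and 12.3 and 7.61 in the drug-tolerant ones. For monocytes and macrophages 7 of 8 had a row, PTPRC had none, and summed levels were 42.0, 87.5 and 95.8 in the parental libraries and 49.4 and 53.2 in the drug-tolerant ones. MARCO, a scavenger receptor, held most of this sum in parental b and c and less in the other libraries, at 15.9, 51.1 and 69.7 against 12.3 and 15.2, and parental a was the lowest parental library for it, as for SAA1. Of the fibroblast markers 2 of 8 had a row, COL1A1 holding nearly all of their sum, and of the endothelial ones 4 of 6, PECAM1 being the highest at 1616. The part of these markers in the results was not tested.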

How the data were processed

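TriZol RNA and a KAPA stranded mRNA kit were used for the 3 parental and 2 drug-tolerant libraries, per the labels' protocols. FastQC, STAR, DESeq2 and hg38 were used, per the submitters' processing notes, and the sources used here name no counting tool, annotation or settings. The authors deposited the mean level as a signal, reads over size factor averaged over libraries. The fold change and its standard error were deposited on the log2 scale, and the Wald score was deposited as their quotient. Each p-value and adjusted p-value was deposited by the authors from DESeq2. The smallest mean level with an adjusted p was 8.23.

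Because the table holds no counts, the authors' test over all 15223 genes was used, and edgeR was not run. Whole reads were found as the only set whose mean matched the deposited 10 significant digits and, above a mean of 10, whose negative binomial fit with a zero-centred normal prior also gave the deposited fold change and error within 2e-09. Of 12705 genes with a mean under 10, all were resolved from the mean alone, and of 4683 with a mean of 2 to 10, 4675 (99.83%) matched the fold change and error too. Of 4162 genes with a mean of 10 to 100, 4132 were resolved, as were 38 of 38 list genes up to 600. A positive sign means higher in drug-tolerant cells, since reads in 2 of the 5 libraries pull the fold change above 0 and reads in 3 pull it below. Interval bounds are the fold change with its normal 95% interval. Transcript lengths are the longest GENCODE release 29 transcript, and the length trend is a lowess curve with span 0.3 (Python 3.11.15, statsmodels 0.14.6, scipy 1.17.1).

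The members and lists were chosen with earlier results of these data known. Named were all members, cluster neighbours, called list genes and up to 4 further genes per list, by smallest adjusted p among those whose mean was 10 or more. IL6R, IL6ST, DEFB1, NKX2-1, NAPSA and PTPRC or receptors without a row were named outside this rule after their values were seen. They stand where the text describes receptors, markers or antimicrobial genes above 0.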

Additional observations from a re-analysis of the deposited data

How the results depend on the processing

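The count of members called lower was 1 and became 0 when scores were divided by their robust SD of 1.5 (SAA1 log2 fold change -1.51, adjusted p = 0.97) and 0 with the trend over transcript length removed (SAA1 -0.95, adjusted p = 0.21). It stayed at 1 under the other 5 alternatives, and the count called higher was 0 under all 7. With the robust SD, all 6 tested members had the same Benjamini-Hochberg adjusted p of 0.97. The share of all genes called under the alternatives that lost the call is not given here. The loss therefore cannot be read as particular to SAA1. Ratios from reads without 1 library each ran, on the log2 scale, from -2.31 to -1.80 for SAA1, -1.18 to -0.77 for SAA2, -1.18 to -0.81 for CXCL8, -1.23 to -0.71 for CXCL1, -1.31 to -0.05 for IL6, -0.96 to -0.43 for CCL20, -0.48 to 1.04 for CXCL2 and -0.95 to 0.68 for CXCL3. Against parental a alone, an alternative added after seeing the data, CXCL3 was at 1.30, SAA1 at -1.07 and CXCL8 at -1.47. The cause was not tested. No paired analysis was possible because the recovered libraries carry no replicate numbers. The authors' test was not rerun without single libraries, since reads were recovered for only 16875 of the 27477 genes. Depth limits CXCL2, CXCL3 and CCL20, with 34, 32 and 15 reads over all libraries.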
